A study of Rattus norvegicus with 4 samples.

Results

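The nuclear genes of the mitochondrial respiratory chain and of ATP synthase were examined in retroperitoneal white fat, a visceral depot, of lean and obese rats. Members were the genes whose symbol in the platform annotation starts with Ndufa, Ndufb, Ndufc, Ndufs, Ndufv, Uqcr, Atp5, Cox4, Cox5, Cox6, Cox7 or Cox8, together with Cyc1 and Cycs, which gave 77 of 14506 genes with a row of their own. Cyc1, the cytochrome c1 gene, and Cox7a1, a muscle-type subunit gene of complex IV, carried no row with a single symbol and were not analysed here. Of the 77, 33 belong to complex I, 7 to complex III, 12 to complex IV and 16 to complex V, 1 is cytochrome c, and 2 are the muscle-type isoforms Cox6a2 and Cox8b. The remaining 6 names share a prefix with the subunits but are not subunits themselves: the assembly factors Ndufaf1, Ndufaf3 and Ndufaf4, the supercomplex factor Cox7a2l, and the pseudogene names Ndufs6-ps1 and Cox6c-ps1.

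The rats were untreated males of the WNIN/Ob strain, 4 months old, with stock diet at will. The labels name the lean and the obese phenotype and give no allele for either. There were 2 lean and 2 obese rats, called lean 1, lean 2, obese 1 and obese 2 here, each with 1 Affymetrix Rat Gene ST array, and this number limits the precision. Values are log2 of the deposited intensity, and differences are obese minus lean, so 1 unit is a doubling.

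Complex I takes electrons from NADH and complex III passes them from ubiquinol to cytochrome c. Complex IV hands them to oxygen, and complex V, the ATP synthase, uses the proton gradient that the other complexes build to make ATP. White adipocytes hold fewer mitochondria than brown adipocytes or muscle fibres. In striated muscle, and for some also in brown fat, complex IV contains isoforms of its own, among them the products of Cox6a2, Cox7a1 and Cox8b in place of Cox6a1, Cox7a2 and Cox8a. Many nuclear subunit genes are known to be driven by the transcription factors NRF1, GABPA and YY1 and by oestrogen-related receptors.

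Promoter sequence is shown for the 3 complex I genes with the smallest p-values and for both muscle-type isoforms, because these genes carry the main contrasts of the results. Each line gives the 150 bases before the transcription start from RefSeq, build GRCr8, 5′ to 3′ on the gene's strand. Capitals mark matches on either strand to GCGCA, any base and then GCGC (NRF1), CCGGAAG (ETS factors such as GABPA), AAGATGGCG (YY1) or TNAAGGTCA (oestrogen-related receptors).
Ndufa11, chr9:1637464-1637613, plus strand: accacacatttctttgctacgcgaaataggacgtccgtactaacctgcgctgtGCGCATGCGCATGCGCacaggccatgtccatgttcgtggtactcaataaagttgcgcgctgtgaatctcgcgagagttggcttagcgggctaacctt
Ndufa12, chr7:30658166-30658315, plus strand: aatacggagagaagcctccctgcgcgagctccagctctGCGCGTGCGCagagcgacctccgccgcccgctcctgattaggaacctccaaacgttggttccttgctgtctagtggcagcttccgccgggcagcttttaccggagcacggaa
Ndufa3, chr1:74515559-74515708, minus strand: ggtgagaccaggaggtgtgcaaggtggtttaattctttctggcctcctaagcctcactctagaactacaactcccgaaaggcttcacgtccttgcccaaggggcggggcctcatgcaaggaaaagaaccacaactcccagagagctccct
Cox6a2, chr1:192219717-192219866, minus strand: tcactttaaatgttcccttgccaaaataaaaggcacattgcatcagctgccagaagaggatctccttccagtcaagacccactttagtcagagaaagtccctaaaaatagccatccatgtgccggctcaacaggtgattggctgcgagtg
Cox8b, chr1:205408274-205408423, minus strand: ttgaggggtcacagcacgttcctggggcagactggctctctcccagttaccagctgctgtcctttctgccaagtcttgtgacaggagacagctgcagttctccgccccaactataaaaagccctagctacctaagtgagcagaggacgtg

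A promoter entry, from 250 bases before to 50 after the start, was matched for 67 of the 77 members by gene ID. NRF1 letters were found in 13 of these 67 (19.4%), against 4.25% of all 33469 promoters of the table and 7.24% of the 12519 promoters of genes measured here. ETS letters were found in 19 members (28.4%, against 8.75% and 12.9%) and YY1 letters in 8 (11.9%, against 1.73% and 2.57%). The letters of oestrogen-related receptors were in Atp5mc3 and Ndufb4 only (2.99%, against 1.20% and 0.791%). Such matches are descriptions of sequence and not of binding. The median difference between obese and lean rats was 0.43 for members with NRF1 letters and 0.44 for those without, 0.39 and 0.47 for ETS letters, and 0.59 and 0.43 for YY1 letters.

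Before the members are described, the lean arrays need to be told apart. Of 21 skeletal muscle markers, 18 were measured, and their summed linear intensity was 49689 in lean 1 against 964.6 in lean 2, 1010 in obese 1 and 729.3 in obese 2. Acta1, the skeletal muscle actin, was at 12.88 in lean 1 and at 6.56 to 7.67 on the other arrays, and Ckm, the muscle creatine kinase, at 11.97 against 5.82 to 6.55. The troponin genes Tnnt3 and Tnnt1 were at 12.27 and 8.43 in lean 1, against at most 7.43 and 5.20 on the others. In bulk tissue, fewer cells of a type and less RNA per cell cannot be told apart. Muscle is rich in mitochondria, and the main results are given with each lean rat left out. The part of muscle RNA in the members' values was not tested. Lean 2 had the narrowest distribution, with an interquartile range of 2.24 over all rows against 2.63 to 2.77 on the other arrays. The adipocyte marker Adipoq, the adiponectin gene, lay between 11.86 and 12.29 on all arrays.

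The comparison of obese with lean fat asked which transcripts differ at baseline. No member passed limma's test at an adjusted p under 0.05 over all genes, where 0.841% of the 14506 genes passed (122 genes, of which 112 were higher, 0.772%, and 10 lower, 0.0689%), and the smallest adjusted p among members was 0.165. At an unadjusted p under 0.05 there were 8 members higher and none lower, against 9.93% and 5.33% of all genes (15.3% in either direction). The share of members higher was thus near the background. The members nevertheless lay mostly above 0. The difference was positive for 61 of 77 (79.2%, against 50.1% of all genes), and the median was 0.40 against 0.00047 for all genes. It was 0.52 with lean 1 left out and 0.29 with lean 2 left out. A gene is called separated upward where each obese value exceeded each lean value, and separated downward in the opposite case. Upward separation held for 36 members (46.8%, against 26.4% of all genes) and downward for 5 (6.49%, against 21.3%). The 5 were Cox6a2, Cox6b2, Cox8c, Atp5mc1 and Cox6c-ps1. Rows of 1240 olfactory and vomeronasal receptors should be silent in fat. Their medians were 3.38 and 3.86 in lean rats and 3.16 in both obese rats. Their 95th percentiles were 4.94, 5.36, 4.69 and 4.71 in lean 1, lean 2, obese 1 and obese 2. Cox6c-ps1 lay below these on each array. Cox8c lay below them in the lean rats and slightly above them in the obese rats, at 4.87 and 4.83.

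Other genes of the members' level were also shifted. The middle 50% of the members had mean values between 7.38 and 9.32. Of the 2378 other genes of that level, 71.3% were above 0 and 41.3% were separated upward, with a median difference of 0.28. Of the 39 members of that level, 92.3% were above 0, with a median of 0.53, and 21 (53.8%) were separated upward and none downward. With quantile normalization between arrays these medians were 0.37 for the members and 0.11 for the other genes. With lean 1 left out they were 0.62 and 0.42, and with lean 2 left out 0.36 and 0.12. The change between the lean rats was thus also seen in other genes of that level. This grouping by level was chosen after the data were seen and carries no test.

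**Figure D1:**
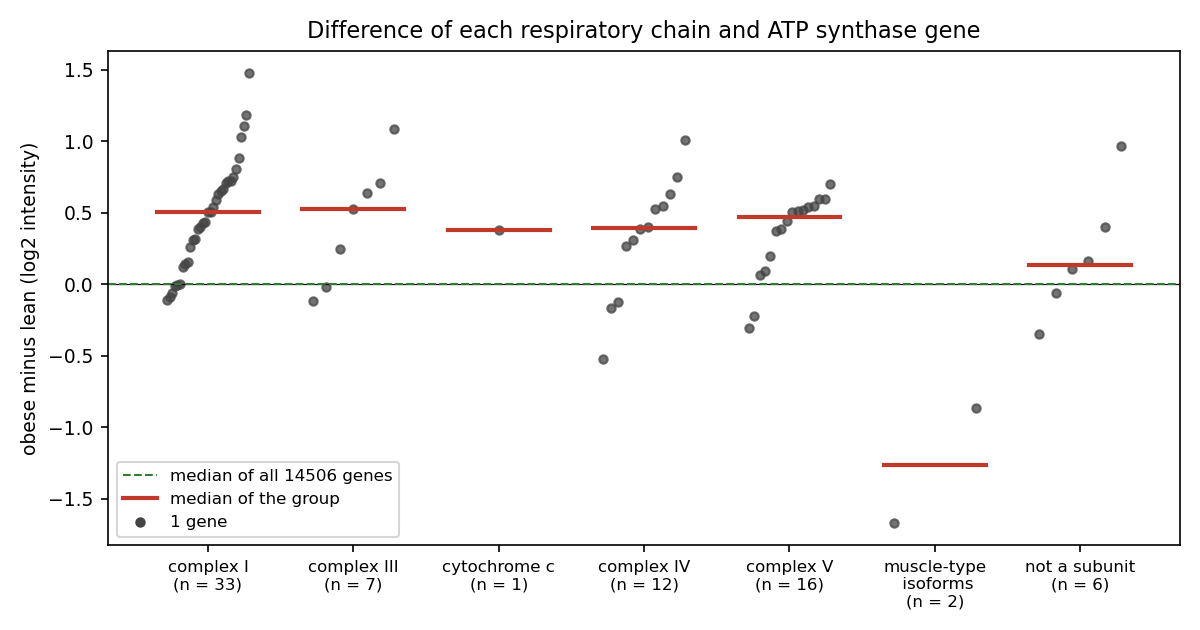
Obese minus lean difference (log2 intensity) of each of the 77 genes, as 1 point per gene ordered within its group, with the group's median in red and the median of all 14506 genes as a dashed line. The medians of complexes I, III, IV and V lie between 0.39 and 0.53, and both muscle-type isoforms lie below 0.

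The members' shift was present against each lean rat but differed in size. Obese 1 lay above lean 1 for 56 members and above lean 2 also for 56, and obese 2 lay above each of them for 59. Of all genes, obese 1 lay above lean 1 for 53.0% and above lean 2 for 45.1%, and obese 2 for 58.8% and 49.5%. The median member was higher by 0.24 and 0.32 against lean 1, where all genes gave 0.03 and 0.08. Against lean 2 the medians were 0.45 and 0.55, where all genes gave -0.07 and -0.01. Lean 2 was the lowest of the 4 arrays for 41 members (28.7% of all genes) and lean 1 for 24 (28.4%). The highest array was that of obese 1 for 26 members (21.4% of all genes), of obese 2 for 31 (23.2%) and of lean 2 for 14 (38.3%).

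The 3 smallest p-values among the members were in complex I. Ndufa11, an accessory subunit of the membrane arm, was at 7.23 and 7.42 in the lean rats and at 8.32 and 8.40 in the obese rats. The groups did not overlap, and the difference of 1.03 ± 0.28 (SE, n = 2 per group) was a 2.04-fold value with a limma adjusted p of 0.165. With single rats left out it was 0.93 with lean 1 left out, 1.13 with lean 2 left out, 1.07 with obese 1 left out and 0.99 with obese 2 left out. Ndufa3, another accessory subunit of the membrane arm, was at 7.76 and 6.57 in the lean rats and at 8.73 and 8.55 in the obese rats. Its difference of 1.48 ± 0.41 was the highest of the members (2.78-fold, adjusted p = 0.171 by limma). The lean rats differed from each other by more than 1 unit, and the value was 2.07 with lean 1 left out (adjusted p = 0.029) and 0.88 with lean 2 left out (adjusted p = 0.200).

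Ndufa12, an accessory subunit at the NADH-oxidising end of the complex, was at 8.17 and 7.21 in lean rats and at 8.96 and 8.63 in obese rats. It was separated upward, with a difference of 1.11 ± 0.38 (limma adjusted p = 0.250) that was 1.59 with lean 1 left out (adjusted p = 0.041) and 0.62 with lean 2 left out (adjusted p = 0.377). Ndufb8, a membrane-arm subunit often used as a marker of assembled complex I, was at 7.08 and 6.97 in lean rats and at 7.81 and 7.68 in obese rats. Its difference was 0.72 ± 0.27 (limma adjusted p = 0.276), and it stayed between 0.66 and 0.78 with any rat left out. Ndufv1, which carries the NADH binding site, was at 9.11 and 8.77 in lean and at 9.73 and 9.65 in obese rats.

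Over the 33 complex I genes the median difference was 0.50, and 28 were above 0 (84.8%, against 50.1% of all genes). Upward separation held for 16 (48.5%) and downward for 0, against 26.4% and 21.3% of all genes. Among other genes of the members' level, 71.3% were above 0 and 41.3% were separated upward. The complex I median was 0.76 with lean 1 left out and 0.29 with lean 2 left out. The 6 core genes measured, whose products form the electron-carrying arm, are Ndufv1, Ndufv2, Ndufs1, Ndufs3, Ndufs7 and Ndufs8. Their median difference was 0.65, but it was 0.95 with lean 1 left out and 0.07 with lean 2 left out. The 27 accessory genes had a median of 0.43, with 0.58 and 0.31 in those settings. Ndufs1, the largest core subunit, differed most between the lean rats among the core genes. It was at 10.16 in lean 1, 8.41 in lean 2, 9.76 in obese 1 and 10.23 in obese 2, so only lean 2 stood apart. Ndufa10, an accessory subunit, had the lowest difference of the complex, -0.11 ± 0.27. It turned to 0.0043 with lean 1 left out and to 0.077 with obese 1 left out. Ndufa4 is counted here with complex I by its symbol, although later work places its product in complex IV, and was at 11.23, 10.58, 11.14 and 11.55 in lean rats 1 and 2 and obese rats 1 and 2.

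**Figure D2:**
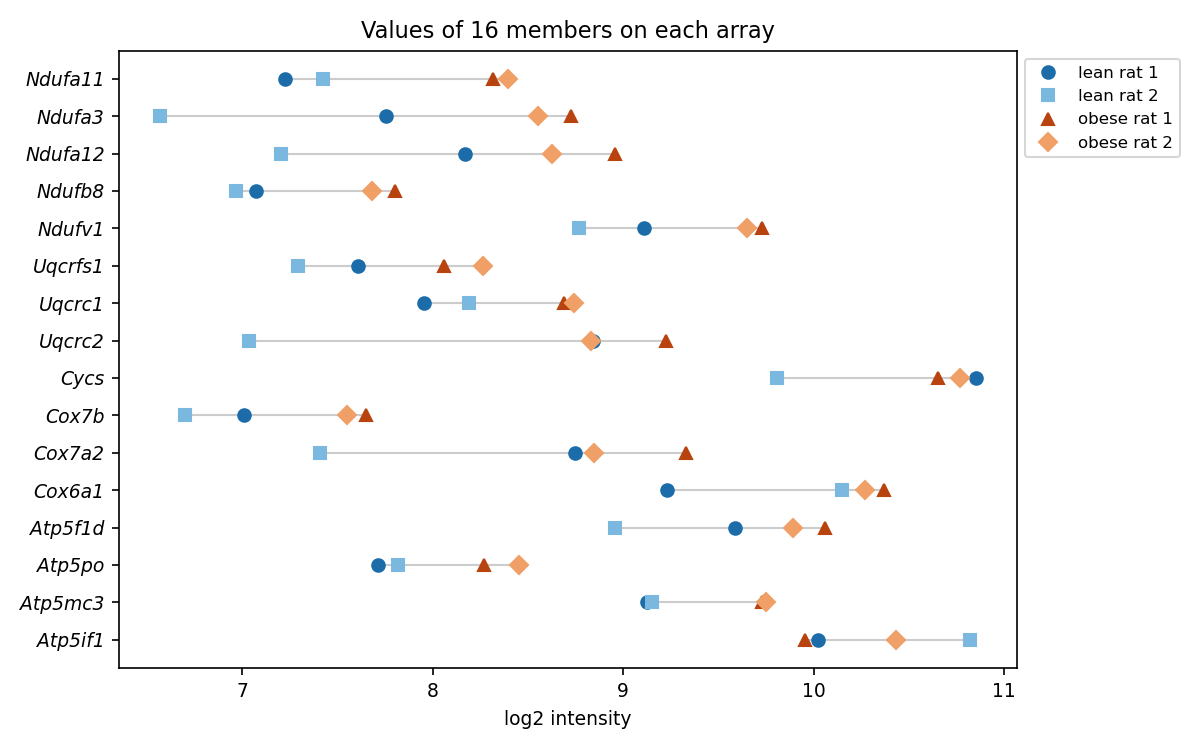
Log2 intensity of 16 members on each of the 4 arrays, with 1 symbol per rat and a line from the lowest to the highest array. Ndufa11, Ndufb8, Atp5po and Atp5mc3 have both lean rats close together and below both obese rats, whereas for Uqcrc2 and Cox7a2 lean rat 2 stands apart and lean rat 1 lies near obese rat 2.

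In complex III the catalytic and core genes gave the largest values. Uqcrfs1, the Rieske iron-sulphur protein, was at 7.61 and 7.29 in lean rats and at 8.06 and 8.27 in obese rats, a difference of 0.71 ± 0.29 (limma adjusted p = 0.308). Uqcrc1, a core protein, was at 7.95 and 8.19 in lean rats and at 8.69 and 8.74 in obese rats (0.64 ± 0.29). Both genes had non-overlapping groups, and they differed in which lean rat was the lower. The other core gene, Uqcrc2, was at 8.84 in lean 1, 7.03 in lean 2, 9.22 in obese 1 and 8.83 in obese 2. Lean 2 alone was low, and the difference of 1.09 ± 0.55 (adjusted p = 0.384) was 1.99 with lean 1 left out (adjusted p = 0.032) and 0.18 with lean 2 left out. The small subunits lay lower, with Uqcrq at 0.53, Uqcr11 at 0.25 (-0.0023 with lean 1 left out), Uqcrh at -0.02 (0.21 with lean 2 left out) and Uqcrb, which is needed for ubiquinone binding, at -0.12. Uqcrb turned to 0.17 with lean 2 left out and 0.26 with obese 1 left out. The complex III median was 0.53 over 7 genes, and 0.25 with lean 1 left out.

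Cycs, the soluble carrier cytochrome c, was at 10.85 and 9.81 in lean rats and at 10.65 and 10.77 in obese rats. Its difference of 0.38 ± 0.40 turned to -0.14 with lean 2 left out and was 0.90 with lean 1 left out, so the lean rats lay on either side of the obese ones.

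Of the 12 complex IV genes, 9 were above 0, with a median of 0.39 (0.29 with lean 1 left out, 0.28 with lean 2 left out). Cox7b was at 7.01 and 6.70 in lean rats and at 7.65 and 7.55 in obese rats, a difference of 0.75 ± 0.28 (1.68-fold, limma adjusted p = 0.272). It was 0.90 with lean 1 left out and 0.59 with lean 2 left out. Cox7a2, the widely expressed counterpart of Cox7a1, was at 8.75 and 7.41 in lean rats and at 9.33 and 8.85 in obese rats. Its difference was 1.01 ± 0.46, and it was 1.68 with lean 1 left out (adjusted p = 0.043) and 0.34 with lean 2 left out. Cox5b, which sits on the matrix side, was at 0.53 ± 0.29 and Cox4i1, the widely expressed form of subunit 4, at 0.27 ± 0.30, both with non-overlapping groups. Cox4i2, the form of subunit 4 tied to low oxygen, was at 5.06 and 6.27 in lean rats and at 4.81 and 5.48 in obese rats. Its difference of -0.52 ± 0.41 was the lowest of the complex and turned to 0.084 with lean 2 left out. The testis-type forms Cox6b2 and Cox8c were at -0.13 and -0.17, with Cox8c near the upper range of the silent receptor rows.

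Both muscle-type isoforms lay below 0. Cox6a2, the subunit 6A of heart and skeletal muscle, was at 8.95 in lean 1 but at 5.91 in lean 2, 5.75 in obese 1 and 5.77 in obese 2. Cox8b, the subunit 8 of muscle and brown fat, was at 6.43 in lean 1 and at 4.21, 4.49 and 4.43 on the other arrays. For both genes a single array was high, the one with the muscle markers, and lean 2 lay close to the obese rats. The difference of Cox6a2 was -1.67 ± 0.80 (limma adjusted p = 0.368), and it was -0.15 with lean 1 left out (adjusted p = 0.650) against -3.19 with lean 2 left out (adjusted p = 0.0018). Cox6a2 was also called with obese 2 left out (-1.68, adjusted p = 0.038), a fit in which limma took each gene's spread from the trend alone. Cox8b was at -0.87 ± 0.60 (adjusted p = 0.527) and turned to 0.25 with lean 1 left out, whereas it was -1.98 with lean 2 left out (adjusted p = 0.0053). Both were called lower with lean 2 left out, where 3.29% of all genes were called (1.34% higher and 1.94% lower). With obese 2 left out, 2.45% of all genes were called (1.62% higher and 0.834% lower), and with obese 1 left out, where no member was called, 1.85% (1.02% higher and 0.827% lower). The 1240 olfactory and vomeronasal receptor rows, which should be silent in fat, had 95th percentiles of 4.69 to 5.36, so Cox8b outside lean 1 lay within their range.

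The counterparts did not share that pattern. Cox6a1 was at 9.23 in lean 1, 10.15 in lean 2, 10.37 in obese 1 and 10.27 in obese 2, and Cox8a was at 9.95, 10.78, 10.71 and 10.79 in the same order. In both, lean 1 was the lowest array and the other arrays lay close together. Their differences were 0.63 ± 0.38 and 0.39 ± 0.36, which became 0.17 and -0.03 with lean 1 left out and 1.09 and 0.80 with lean 2 left out. Ucp1, which uncouples respiration in brown adipocytes, was at 6.89 and 4.97 in lean rats and at 5.90 and 4.17 in obese rats. In lean 2 and obese 2 it lay below the 95th percentile of the silent receptor rows of the same array. The 10 brown adipocyte markers measured of 12 had a summed linear intensity of 917.9 and 403.6 in lean rats and of 836.8 and 715.9 in obese rats, and none passed the test. The smallest p-values of that list were those of Fabp3, a fatty acid binding protein, and of Cpt1b, the muscle-type carnitine transferase. Fabp3 was at 0.92, which was 1.72 with lean 1 left out and 0.11 with lean 2 left out. Cpt1b was at 7.58, 4.86, 7.47 and 7.30 in lean 1, lean 2, obese 1 and obese 2. Its difference was 2.53 with lean 1 left out and -0.19 with lean 2 left out.

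**Figure D3:**
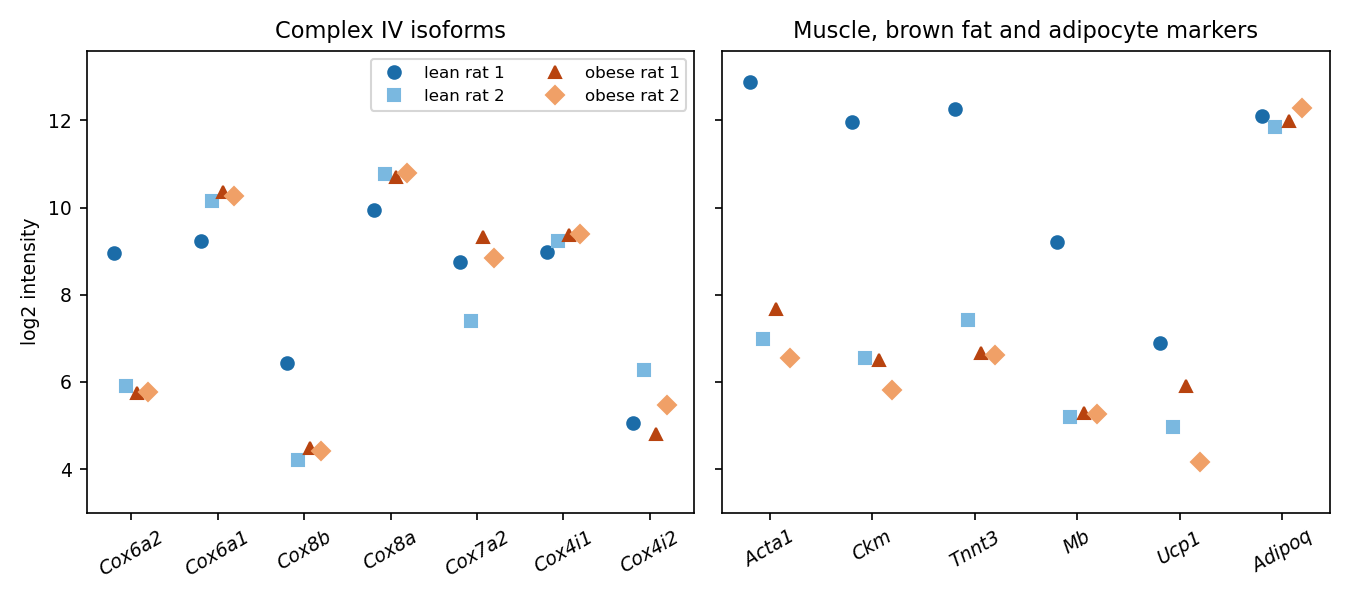
Log2 intensity on each array of complex IV isoform genes (left) and of muscle, brown fat and adipocyte markers (right), with 1 symbol per rat. Cox6a2 and Cox8b are high in lean rat 1 only, as are Acta1, Ckm, Tnnt3 and Mb, whereas Cox6a1 and Cox8a are lowest there.

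In complex V, 14 of 16 genes were above 0 (87.5%, against 50.1% of all genes), with a median of 0.47. Upward separation held for 8 (50%) and downward for 1 (6.25%), against 26.4% and 21.3% of all genes. Among other genes of the members' level, 71.3% were above 0 and 41.3% were separated upward. The complex V median was 0.56 with lean 1 left out and 0.35 with lean 2 left out. Atp5f1d, the delta subunit of the catalytic F1 part, was at 9.59 and 8.96 in lean rats and at 10.06 and 9.89 in obese rats (0.70 ± 0.34, limma adjusted p = 0.366). Atp5po, the peripheral stalk subunit that confers oligomycin sensitivity, was at 7.71 and 7.82 in lean rats and at 8.27 and 8.45 in obese rats (0.60 ± 0.29). Both had groups that did not overlap, and Atp5po lay between 0.50 and 0.69 with any rat left out. The 3 genes for the same c subunit of the rotor ring differed. Atp5mc3 was at 9.13 and 9.15 in lean rats and at 9.73 and 9.75 in obese rats, so the groups differed by 0.60 ± 0.30 and did not overlap. Its other row had a wider lean gap, at 9.06 and 8.43 against 9.45 and 9.38 in obese rats. Atp5mc2 was at 0.39 ± 0.39, with overlapping groups in the row used, and at 0.033 with lean 1 left out and 0.74 with lean 2 left out. Its other, lower row was at 7.93 and 7.83 in lean rats and at 8.60 and 8.31 in obese rats. There the groups did not overlap and differed by 0.58, so the overlap of Atp5mc2 depends on the row. Atp5mc1 was at 7.23 and 7.28 in lean rats and at 6.97 and 6.93 in obese rats, the lowest difference of the complex at -0.30 ± 0.27.

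The catalytic subunits Atp5f1a and Atp5f1b were at 0.44 ± 0.37 and 0.50 ± 0.32, and only the groups of Atp5f1b did not overlap. Atp5f1a was at 0.89 with lean 1 left out and at -0.0015 with lean 2 left out. Atp5pf, a stalk subunit, was at 0.54 ± 0.29. Atp5if1, which inhibits ATP hydrolysis by the synthase, was at 10.02 and 10.82 in lean rats and at 9.95 and 10.43 in obese rats. Its difference of -0.23 ± 0.38 turned to 0.17 with lean 2 left out and to 0.01 with obese 1 left out, and the groups overlapped.

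The gap between the lean rats had a median size of 0.55 over the members and the gap between the obese rats 0.17, where all genes gave 0.36 and 0.21. Beside Cox6a2 and Cox8b, the widest lean gap was in Ndufa9, an accessory complex I subunit, at 8.39 in lean 1 and 6.32 in lean 2, against 8.68 and 8.40 in the obese rats. Its difference was 2.22 with lean 1 left out (limma adjusted p = 0.028) and 0.15 with lean 2 left out (adjusted p = 0.859). The widest gaps between the obese rats were in Ndufaf1, Ndufa6 and Ndufa1, a membrane-arm subunit at 7.34 in obese 1 and 8.32 in obese 2. Ndufa1 was at 6.80 in lean 1 and 8.35 in lean 2, so the arrays numbered 2 were high in both groups. Across the 77 members the lean gap and the obese gap had a Pearson correlation of 0.39 and a Spearman correlation of 0.39, against 0.02 and -0.01 across all genes. Genes on the same 4 arrays are not independent replicates, and these correlations carry no test.

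**Figure D4:**
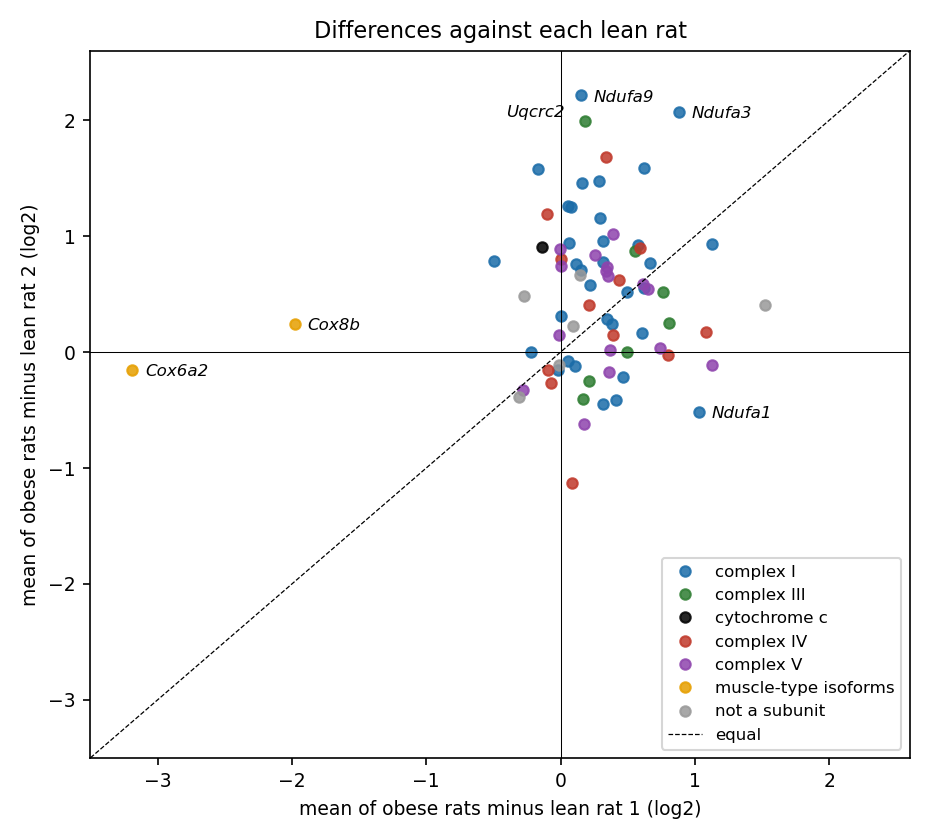
Mean of the obese rats minus lean rat 1 (horizontal axis) against the same mean minus lean rat 2 (vertical axis), both log2, with 1 point per member coloured by group and a dashed line of equality. Most points lie to the upper right of both zero lines, Ndufa9 and Uqcrc2 are high against lean rat 2 only, and Cox6a2 and Cox8b are low against lean rat 1 only.

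With lean 1 left out, limma called 8 members higher and 0 lower, where 7.45% of all genes were called, 4.58% higher and 2.87% lower. They were Ndufa3, Ndufa9, Ndufa12, Ndufc2, Ndufs1 and Ndufs8 of complex I, Uqcrc2 of complex III and Cox7a2 of complex IV. In each of these 8 genes lean 2 was the lowest array, and the fit then had a single lean rat, which gives no spread. The spread came from the obese pair (1 residual degree of freedom) and from the trend shared among genes (5.12 prior degrees of freedom). With lean 2 left out, no member was called higher.

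Among the names that are not subunits, Cox7a2l, which helps to join complexes III and IV, was at 7.67 and 8.78 in lean rats and at 9.02 and 9.35 in obese rats. It was separated upward, with a difference of 0.96 ± 0.41 (limma adjusted p = 0.321) that was 0.41 with lean 1 left out and 1.52 with lean 2 left out. The assembly factors Ndufaf1, Ndufaf3 and Ndufaf4 were at 0.11, 0.16 and -0.06. Rows named Ndufs6-ps1 and Cox6c-ps1 may also take up signal of their parent genes, and were at 0.40 and -0.35. Of 12 members with more than 1 row, the differences of the rows had the same sign in 10. In Ndufv3 they lay near 0, and Atp5pd was at 0.52 in the row used and at -0.10 in its other row.

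None of the other genes of the pathway passed the test. All 4 genes of complex II, which feeds electrons from succinate, were above 0, with a median of 0.59 (1.08 with lean 1 left out and 0.09 with lean 2 left out). The highest was Sdhc, a membrane anchor, at 8.93 and 8.52 in lean rats and at 9.71 and 9.38 in obese rats (0.82 ± 0.32, limma adjusted p = 0.289), followed in p by the iron-sulphur subunit gene Sdhb at 0.60 (1.13 and 0.07 in those settings). Of 28 assembly factors measured of 41, 24 were above 0 (85.7%, against 50.1% of all genes), with a median of 0.33. Upward separation held for 15 of them (53.6%, against 26.4% of all genes). Tmem126b, a complex I assembly factor, was at 1.07 ± 0.31 and Sdhaf3, for complex II, at 0.60 ± 0.24. Of 8 carrier and channel genes 7 were measured, with a median of 0.60 (1.24 with lean 1 left out and 0.19 with lean 2 left out). Vdac2, an outer membrane channel, was at 0.86. Slc25a5, the widely expressed adenine nucleotide carrier, was at 9.95 and 8.81 in lean rats and at 10.74 and 10.45 in obese rats, whereas its muscle-type counterpart Slc25a4 was at 11.00 and 9.03 and at 10.32 and 9.90. With lean 1 left out, where 4.58% of all genes were called higher, Slc25a5 (1.78), Vdac2 (1.53) and Tmem126b were among them. With lean 2 left out none of these 3 passed, at 0.64, 0.20 and 0.64 (limma adjusted p = 0.384, 0.821 and 0.217). Slc25a4, at 0.10 with all rats, was at 1.08 with lean 1 left out and at -0.89 with lean 2 left out. Vdac1, at 0.60 with all rats, was at 1.41 and -0.21 in those settings.

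The regulators of mitochondrial biogenesis had a median of 0.14 over 19 genes measured of 21 (0.34 with lean 1 left out and 0.15 with lean 2 left out). Nrf1 was at 0.02, Esrra at 0.14 and Tfam, the mitochondrial DNA packaging factor, at 0.13, and each took the opposite sign with 1 of the lean rats left out. Esrrg, an oestrogen-related receptor, was at -0.82 ± 0.27 (limma adjusted p = 0.231) and Tfb1m, a mitochondrial ribosomal RNA methyltransferase, at 0.80 ± 0.35 (adjusted p = 0.329), with 1.28 with lean 1 left out (adjusted p = 0.041) and 0.33 with lean 2 left out. Tfb2m, at 0.98 with all rats, was at 1.76 with lean 1 left out and at 0.20 with lean 2 left out. Ppargc1a, the coactivator that drives mitochondrial biogenesis, was at 5.34 in lean 1 and at 3.26, 3.94 and 3.55 on the other arrays. Its difference of -0.56 was 0.48 with lean 1 left out and -1.60 with lean 2 left out. Outside lean 1, Ppargc1a lay below the 95th percentile of the silent receptor rows on each array. The value of 0.48 thus compares signals within the range of those rows. The 13 mitochondrially encoded subunit genes had no row under the symbols looked for and were not analysed here.

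Among markers of other cell types, only macrophage genes passed the test. Of 14 macrophage markers, 6 passed as higher (Gpnmb, Mpeg1, Spp1, Lyz2, Itgb2 and Itgam), where 0.772% of all genes did. The median of the 14 was 1.94, and 13 were above 0 (50.1% of all genes were). Differences were smallest for Cd163 at -0.05, C1qa at 0.27 and C1qb at 0.49. The summed linear intensity of the list was 2863 and 3046 in lean rats and 15476 and 10562 in obese rats. Of 12 adipocyte markers none passed, with a median of 0.26 (0.50 with obese 1 left out and 0.08 with obese 2 left out) and sums of 20630 and 20895 in lean rats against 24077 and 30153 in obese rats. Leptin (Lep) was the adipocyte marker with the smallest p, at 1.56 ± 0.41 (limma adjusted p = 0.145), followed by the lipid droplet gene Cidec at 0.51. No endothelial, mesothelial or blood marker passed. Their medians were -0.49 over 7 of 8 genes (Emcn at -1.19, Plvap at -0.89), -0.92 over 6 of 8 (Gpm6a at -1.01, Krt18 at -1.24) and -1.03 over 5 of 8 (Hbb-b1 at -1.82, Alas2 at -1.58). The endothelial median was -0.75 with lean 2 left out. The mesothelial median was -0.50 with lean 1 left out and -1.57 with lean 2 left out, and the blood median -1.88 with obese 1 left out and -0.24 with obese 2 left out. In the same order, their summed linear intensities were 1792 and 1735 in lean against 1083 and 1273 in obese rats, 818.1 and 262.9 against 183.4 and 223.3, and 4364 and 8129 against 4381 and 1372. The part of any of these cell types in the members' values was not tested.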

How the data were processed

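The authors deposited 1 intensity value per row and array on a linear scale, made with RMA per the submitters' processing notes. Its implementation and the build behind the probe design are unstated (not given in the sources used here). RMA usually ends with arrays of like distribution, but the interquartile ranges of the deposited values differed between arrays (2.24 to 2.77), so array-wide differences may remain. Per the labels' protocols, 100 ng of total RNA was labelled.

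The log2 of each intensity was taken, without a pseudocount. Of 29214 rows, 15310 had 1 gene symbol in the platform annotation, and the row with the highest mean stood for each of 14506 genes. Each gene was fitted on phenotype alone over the 4 arrays by limma 3.58.1 under R 4.3.3, with lmFit and a trended eBayes, with Benjamini-Hochberg adjustment over all genes and a threshold of 0.05. With 2 rats a group, calls rest on the spread shared among genes. The procedure was also run on simulated arrays with independent noise and with the genes' spreads shuffled among genes. These held neither the muscle signal of lean 1 nor the narrow distribution of lean 2, so that run does not measure their effect.

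Members and lists were chosen with earlier results of these data known, and lists were described without a test. Named members are the 4 with the smallest p and the extremes in each complex, the isoform pairs, the carrier, the inhibitor and the widest gaps between replicates. In the fixed lists the 2 smallest p and every call were named. Other genes were chosen after their values were seen. Figures were drawn with matplotlib 3.10.9.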

Additional observations from a re-analysis of the deposited data

How the results depend on the processing

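Over its alternatives the members' median difference (0.40 as reported) ranged from 0.28 with quantile normalization to 0.52 with lean 1 left out; it was 0.50 after centring arrays on their medians and 0.44 for subunits alone, a setting added after the data were seen. With all 4 rats, limma called 0 members under every alternative tried (block, normalization, variance model, weights, filter, choice of rows, threshold of 0.1). With single rats left out the count of members called lay between 0 and 8: 8 for lean 1, 2 for lean 2, 0 for obese 1 and 1 for obese 2. For all genes called, the count of 122 became 327 with the rat number as a replicate block, 75 with quantile normalization, 262 with a robust variance model, 185 over every row (89 higher and 96 lower), 301 at a threshold of 0.1, and 268 to 1081 with single rats left out. Over all genes, same-numbered rats did not deviate together (correlation of 0.020), although over the members the correlation was 0.39. The labels tie the numbers to no shared litter, batch or day. Lep passed with that block (adjusted p = 0.034, against 0.145 as reported).

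Signs turned for Ndufaf1 (-0.035) and Adipoq (-0.053) under quantile normalization. Among the genes named by rule, those that changed sign with single rats left out ranged from -0.29 to 0.077 for Ndufa10, -0.50 to 0.26 for Uqcrb, -1.13 to 0.084 for Cox4i2, -1.98 to 0.25 for Cox8b, -0.027 to 0.80 for Cox8a, -0.14 to 0.90 for Cycs, -0.62 to 0.17 for Atp5if1, -0.51 to 1.03 for Ndufa1, -0.31 to 0.52 for Ndufaf1, -0.00042 to 0.77 for Ndufa6, -0.19 to 2.53 for Cpt1b, -5.77 to 0.13 for Acta1 and -1.85 to 0.062 for Ucp1. Other genes whose sign turned include Atp5f1a, Uqcr11, Uqcrh, Ndufaf4, Tfam, Esrra, Nrf1, Ppargc1a and Slc25a4. The causes were not tested. The small number of rats, the muscle markers of lean 1, and signal near background in rows such as Cox8b limit these values.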
